A study of Mus musculus with 6 samples.

Results

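The genes described here encode the B cell receptor's signalling machinery: the receptor subunits and co-receptors, the kinases, the adaptors and exchange factors, the calcium and NFAT arm, and the inhibitory arm. Of 34 genes listed by symbol, 32 were measured by a feature (a set of probes summarised to 1 value per array) annotated to that gene alone, out of 19818 genes in all. Each of the 32 had 1 such feature. Lyn, a Src family kinase, and Itpr1, an inositol trisphosphate receptor, had none and were not analysed here. The cells were activated mature splenic B cells of the mouse that received a retrovirus, stayed in mitogen for 36 hours and then spent 24 hours without it. Infected cells were then sorted by their EGFP marker, so every group, the control included, was activated and carried a GFP vector. The control group held the empty vector (EV). Of the other groups, MYD88_L265P carried MYD88 with the L265P change and IKK_K171E carried IKK with the K171E change, and each of the 3 groups had 2 Affymetrix arrays. The labels call the 2 samples of a group biological replicates and do not say whether they came from separate animals, so p-values measure the spread between these samples. The IKK construct is labelled without a subunit, and the strain, the age of the mice and the promoter driving the constructs are not given in the sources used here. Expression from a retrovirus in sorted, activated cells is the model in every comparison.

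The B cell receptor is a membrane immunoglobulin paired with CD79A and CD79B, whose cytoplasmic tails carry tyrosine motifs. When antigen binds, Src family kinases phosphorylate these tails, SYK and BTK are recruited, and the adaptor BLNK assembles phospholipase C gamma 2 with them. Calcium release then activates calcineurin and NFAT, and protein kinase C beta activates the BCL10 and MALT1 complex that leads to NF-kB. Inhibitory receptors such as CD22 and CD72 recruit the phosphatases SHP-1 (Ptpn6) and SHIP-1 (Inpp5d) and limit the signal, and plasma cells lower much of this machinery.

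All 5 measured genes of the inhibitory arm fell in MYD88_L265P over EV, in a list chosen with earlier results of these data known. Among 24 other genes listed as inhibitory, 6 fell and 3 rose, so the fall is stated for the 5 alone. Their promoters are shown first, together with that of Sos1, the 1 gene that rose in MYD88_L265P over EV. RefSeq promoter windows of GRCm38.p6 (250 bases before to 50 after the gene's start) were found for 27 of the 34 genes. Capitals mark matches on either strand to the motifs searched: EBF1 (TCCC and GGGA with any 2 bases between), PU.1 (GAGGAAGT), the octamer (ATGCAAAT), NF-kB (GGG and TTTCC with any 2 bases between), PRDM1 (GTGAAAG) and the E-box (CAGGTG).
Cd72, chr4:43454577-43454876, minus strand: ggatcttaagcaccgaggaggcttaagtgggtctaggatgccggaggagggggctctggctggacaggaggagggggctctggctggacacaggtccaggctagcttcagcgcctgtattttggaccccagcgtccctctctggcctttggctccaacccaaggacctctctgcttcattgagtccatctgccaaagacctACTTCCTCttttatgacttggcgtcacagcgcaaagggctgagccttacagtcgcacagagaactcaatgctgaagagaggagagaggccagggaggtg
Cd22, chr7:30878979-30879278, minus strand: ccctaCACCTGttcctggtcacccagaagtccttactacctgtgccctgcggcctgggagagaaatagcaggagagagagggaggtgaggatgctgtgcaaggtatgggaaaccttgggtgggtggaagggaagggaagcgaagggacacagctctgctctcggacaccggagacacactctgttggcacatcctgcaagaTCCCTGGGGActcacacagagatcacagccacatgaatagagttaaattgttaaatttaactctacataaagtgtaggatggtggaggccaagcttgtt
Inpp5d, chr1:87620062-87620361, plus strand: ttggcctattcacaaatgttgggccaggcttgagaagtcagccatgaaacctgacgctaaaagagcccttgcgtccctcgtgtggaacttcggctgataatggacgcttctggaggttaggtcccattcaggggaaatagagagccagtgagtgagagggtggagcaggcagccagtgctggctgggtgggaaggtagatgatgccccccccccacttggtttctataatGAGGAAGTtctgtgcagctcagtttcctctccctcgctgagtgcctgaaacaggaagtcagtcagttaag
Ptpn6, chr6:124738660-124738959, minus strand: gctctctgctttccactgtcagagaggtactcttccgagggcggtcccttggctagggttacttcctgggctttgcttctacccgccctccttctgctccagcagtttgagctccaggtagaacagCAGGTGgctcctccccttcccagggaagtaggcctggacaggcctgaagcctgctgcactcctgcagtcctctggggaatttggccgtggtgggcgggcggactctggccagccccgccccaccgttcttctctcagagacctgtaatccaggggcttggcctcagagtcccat
Dok3, chr13:55528489-55528788, minus strand: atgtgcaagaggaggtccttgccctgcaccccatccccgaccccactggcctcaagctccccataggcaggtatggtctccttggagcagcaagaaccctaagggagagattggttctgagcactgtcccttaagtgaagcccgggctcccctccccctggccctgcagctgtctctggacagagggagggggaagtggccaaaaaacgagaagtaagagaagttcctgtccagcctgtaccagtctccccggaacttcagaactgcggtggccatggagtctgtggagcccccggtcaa
Sos1, chr17:80480404-80480703, minus strand: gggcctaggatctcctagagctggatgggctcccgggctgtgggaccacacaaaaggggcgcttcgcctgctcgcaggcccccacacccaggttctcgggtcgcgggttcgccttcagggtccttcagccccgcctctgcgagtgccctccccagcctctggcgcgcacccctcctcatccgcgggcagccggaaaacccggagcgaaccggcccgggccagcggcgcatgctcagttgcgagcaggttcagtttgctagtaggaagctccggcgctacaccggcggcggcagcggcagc

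The Cd22 window held the EBF1 motif, which 0.904% of all 32851 promoter windows hold, and an E-box, which 20.2% hold. The PU.1 motif stood in the windows of Cd72 and Inpp5d and in 3.20% of all windows, and an E-box stood in that of Ptpn6. The windows of Dok3 and Sos1 held none of the 6 motifs. Over the 27 genes, the PU.1 motif was present in 5 (Cd72, Grb2, Inpp5d, Rasgrp3 and Vav1), the octamer in 3 (Blnk, Itpr3 and Prkcb) and the E-box in 12. These genes had 35 windows, some more than 1 each, and 5, 3 and 14 of the 35 held the motifs. The shares of all windows are per window and compare with these counts of windows. The octamer is held by 1.74% of all windows. No window of these genes held the NF-kB or PRDM1 letters, which stand in 1.63% and 4.24% of all windows. These are matches of letters in short windows and describe no binding.

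The transduced genes, the arrays and markers of cell types were checked. Myd88 had a log2 signal of 12.25 and 12.31 in MYD88_L265P against 9.14 to 9.43 on the other 4 arrays, and Ikbkb, which encodes IKK beta, had 11.35 and 10.68 in IKK_K171E against 9.68 to 10.22 on the others. Within a group, the median SD of the 32 genes was 0.083 in EV, 0.076 in IKK_K171E and 0.037 in MYD88_L265P, and the widest was 0.36 for Btk in EV. B cell markers (8 of 10 listed were measured) had group means of 10.84 to 12.86 in EV. The log2 of their summed signal was 14.98 on both EV arrays, 14.71 and 14.74 in IKK_K171E, and 14.61 and 14.66 in MYD88_L265P. In MYD88_L265P over EV, 3 of the 8 fell (Cd37, Ebf1 and Fcrla) and Pou2af1 rose, beside 7.33% of all features lower and 9.32% higher. In IKK_K171E over EV Fcrla fell, beside 0.413% of all features lower. The labelled B cell type therefore had its markers present in every group. In such bulk samples, fewer cells of a type and less RNA per cell cannot be told apart.

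**Figure D1:**
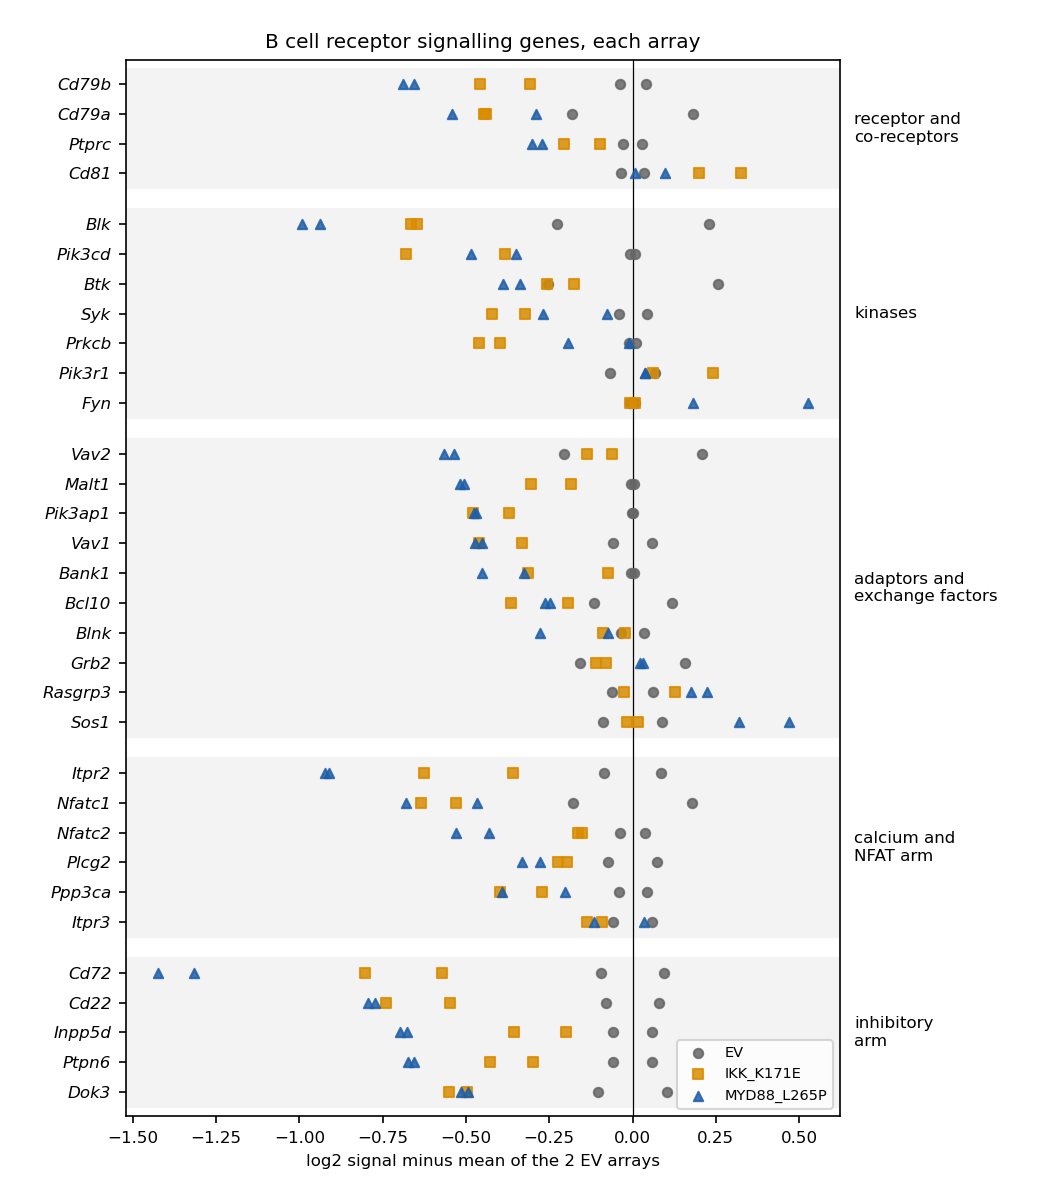
Log2 signal of the 32 measured genes on each of the 6 arrays, drawn as the difference from the mean of the 2 EV arrays and grouped by role (circles, EV; squares, IKK_K171E; triangles, MYD88_L265P). Most MYD88_L265P and IKK_K171E points lie left of the EV points, Cd72 reaches the farthest left, and Sos1 and Fyn lie to the right in MYD88_L265P.

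The first comparison asked how MYD88_L265P changed the receptor's signalling genes relative to the empty vector. Of the 32 genes, 14 fell, 1 rose and 17 did not pass the test (limma, Benjamini-Hochberg adjusted p below 0.05 over all 21542 features). All 5 genes of the inhibitory arm fell, along with the receptor subunit gene Cd79b, the kinase gene Blk and the calcium channel gene Itpr2. The fall was greatest for Cd72, to a level 2.58-fold lower, and the other 13 fell by between 1.38-fold and 1.95-fold. Among all features 7.33% were lower, 9.32% higher and 16.6% called in either direction, and 10.2% were lower among the features whose mean signal was at or above the lowest of the 32 (a filter on signal). The 14 genes are 43.8% of the 32. The median log2 fold change of the 32 genes was -0.40, beside -0.11 for all features. Both MYD88_L265P arrays lay below both EV arrays for 25 of the 32 genes, beside 47.9% of all features, and above them for 3, beside 23.2%. The log2 fold change was below 0 for 26 of the 32 genes, beside 66.4% of all features. At an unadjusted p below 0.05, 20 were lower and 2 higher (Fyn and Sos1), beside 22.9% and 15.8% of all features and 20.6% lower after the filter on signal. With the arrays set to a common median, 12 genes fell and 1 rose, beside 3.43% of features lower and 12% higher, and Vav2 and Nfatc1 no longer passed.

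The inhibitory arm is taken first. Cd72, a C-type lectin receptor that recruits SHP-1, had a log2 signal of 12.10 and 12.30 in EV, 11.40 and 11.63 in IKK_K171E, and 10.78 and 10.88 in MYD88_L265P. The 3 groups did not overlap, and the MYD88_L265P arrays were the lowest. Its log2 fold change in MYD88_L265P over EV was -1.37 (SE 0.12, adjusted p = 0.00348). Cd22, a sialic acid-binding receptor that dampens the calcium response, had log2 signals of 12.26 and 12.10 in EV, 11.44 and 11.63 in IKK_K171E, and 11.40 and 11.38 in MYD88_L265P. Its groups were also apart, although the arrays of the 2 constructs were close to each other. Cd22 fell by 0.78 on the log2 scale in MYD88_L265P over EV (SE 0.105, adjusted p = 0.00761).

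Both phosphatase genes of this arm followed the same order of groups. Inpp5d, whose product removes a phosphate from the lipid made by phosphoinositide kinase, had log2 signals of 11.31 and 11.43 in EV, 11.01 and 11.17 in IKK_K171E, and 10.69 and 10.67 in MYD88_L265P. It fell by 0.69 on the log2 scale in MYD88_L265P over EV (SE 0.097, adjusted p = 0.00829). Ptpn6, the tyrosine phosphatase recruited by CD22 and CD72, had 11.45 and 11.57 in EV, 11.21 and 11.08 in IKK_K171E, and 10.86 and 10.84 in MYD88_L265P. The EV arrays were highest and the MYD88_L265P arrays lowest for both genes, with no overlap. Ptpn6 fell by 0.66 (SE 0.094, adjusted p = 0.00831). Dok3, an adaptor that carries inhibitory signals, had log2 signals of 8.79 and 9.003 in EV, 8.40 and 8.35 in IKK_K171E, and 8.38 and 8.40 in MYD88_L265P. Both constructs lay below EV and overlapped each other, and Dok3 fell by 0.51 in MYD88_L265P over EV (SE 0.10, adjusted p = 0.0199).

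**Figure D2:**
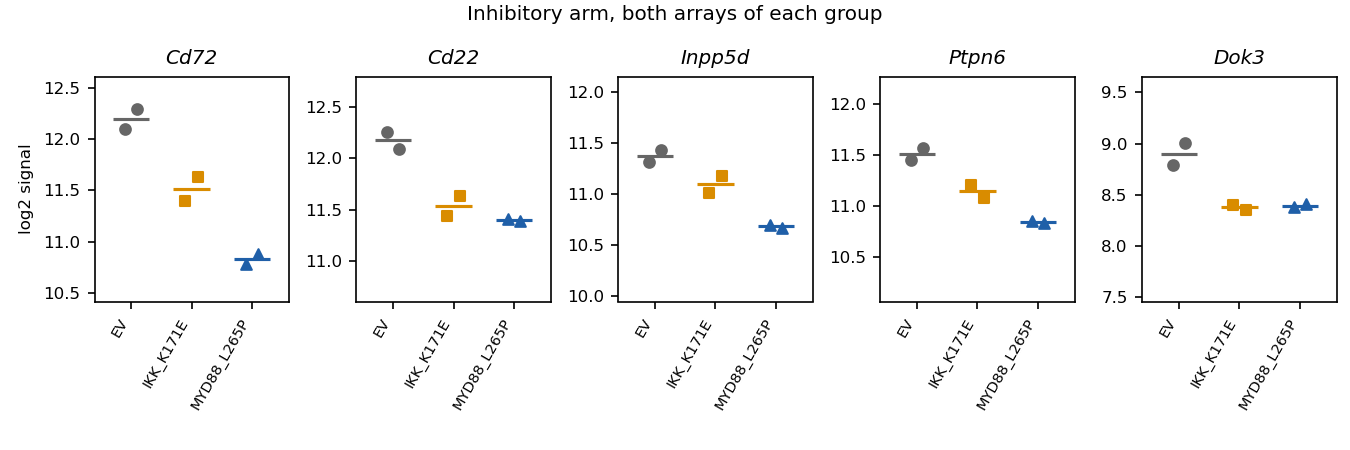
Log2 signal of Cd72, Cd22, Inpp5d, Ptpn6 and Dok3 on both arrays of each group, with a bar at the group mean; every panel spans the same range of log2 units. The EV arrays are the highest in each panel, and the MYD88_L265P arrays of Cd72 (10.78 and 10.88) lie well below those of IKK_K171E (11.40 and 11.63).

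Of the 4 receptor and co-receptor genes, Cd79b fell and 3 did not pass. Cd79b, one of the paired signalling subunits, had log2 signals of 12.47 and 12.55 in EV, 12.05 and 12.20 in IKK_K171E, and 11.85 and 11.82 in MYD88_L265P, a fall of 0.67 (SE 0.093, adjusted p = 0.00789). The groups of Cd79b did not overlap. Its partner Cd79a had 11.24 and 10.88 in EV, 10.62 on both IKK_K171E arrays, and 10.52 and 10.77 in MYD88_L265P. The EV arrays of Cd79a were apart (SD 0.26) and lay above the others, and its log2 fold change of -0.42 did not pass (adjusted p = 0.0810). Ptprc, the phosphatase CD45 that keeps Src family kinases active, had a log2 fold change of -0.29 (adjusted p = 0.0639), and Cd81, a tetraspanin of the cell membrane, 0.05 (adjusted p = 0.685).

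Among 7 kinase genes Blk fell and the other 6 did not pass. Blk, a Src family kinase found mainly in B cells, had log2 signals of 10.57 and 11.03 in EV, 10.13 and 10.15 in IKK_K171E, and 9.86 and 9.81 in MYD88_L265P. Its EV arrays differed by more than its other pairs, yet stood above both constructs, and it fell by 0.96 (SE 0.15, adjusted p = 0.00995). The genes of the central kinases showed smaller differences: the log2 fold change was -0.17 for Syk (95% interval -0.41 to 0.07) and -0.36 for Btk (-0.74 to 0.01). Pik3cd, the catalytic subunit of the B cell's main phosphoinositide kinase, had -0.42 (adjusted p = 0.0533), and its regulatory partner Pik3r1 had 0.04. Prkcb, which encodes protein kinase C beta, had -0.10 (95% interval -0.33 to 0.12). Fyn, a Src family kinase also active in T cells, had 10.08 and 10.07 in EV and 10.26 and 10.60 in MYD88_L265P, a log2 fold change of 0.35 that did not pass (adjusted p = 0.0835).

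The 10 adaptor and exchange factor genes divided into 4 that fell, 1 that rose and 5 that did not pass. Malt1, the protease of the BCL10 complex, had log2 signals of 11.75 and 11.76 in EV, 11.45 and 11.57 in IKK_K171E, and 11.25 and 11.24 in MYD88_L265P. It fell by 0.51 (SE 0.088, adjusted p = 0.0138), with no overlap between the groups. Pik3ap1, the adaptor BCAP that brings phosphoinositide kinase to the receptor, had 11.67 on both EV arrays, 11.19 and 11.30 in IKK_K171E, and 11.20 on both MYD88_L265P arrays. It fell by 0.47 (SE 0.087, adjusted p = 0.0164), and the 2 constructs overlapped each other below EV.

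Vav1, a guanine nucleotide exchange factor, had log2 signals of 10.90 and 11.01 in EV, 10.62 and 10.49 in IKK_K171E, and 10.50 and 10.48 in MYD88_L265P, a fall of 0.46 (SE 0.094, adjusted p = 0.0214). Its relative Vav2 had 10.00 and 10.41 in EV, 10.07 and 10.14 in IKK_K171E, and 9.64 and 9.67 in MYD88_L265P, and fell by 0.55 (SE 0.14, adjusted p = 0.0382). The IKK_K171E arrays of Vav2 lay within the EV range, and those of Vav1 lay below it. Sos1, the exchange factor that loads RAS with GTP, had 9.97 and 9.79 in EV, 9.86 and 9.90 in IKK_K171E, and 10.20 and 10.35 in MYD88_L265P, and rose by 0.39 (SE 0.10, adjusted p = 0.0425). Sos1 did not pass under quantile normalization. The scaffold gene Bank1 missed the threshold narrowly (log2 fold change -0.39, adjusted p = 0.0505). Bcl10 had -0.26, the central adaptor gene Blnk -0.17, Grb2, which carries SOS1 to the receptor, 0.03, and the RAS exchange factor gene Rasgrp3 0.20.

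In the calcium and NFAT arm 3 of 6 genes fell and 3 did not pass. Itpr2, which encodes a calcium channel of the endoplasmic reticulum opened by inositol trisphosphate, had log2 signals of 11.44 and 11.61 in EV, 10.90 and 11.17 in IKK_K171E, and 10.61 and 10.60 in MYD88_L265P. It fell by 0.92 (SE 0.12, adjusted p = 0.00649), with the 3 groups apart. The other measured channel gene of this family, Itpr3, had a log2 fold change of -0.04 (95% interval -0.27 to 0.19). Nfatc1, a transcription factor released by calcineurin, had 10.69 and 11.05 in EV, 10.23 and 10.34 in IKK_K171E, and 10.19 and 10.40 in MYD88_L265P, a fall of 0.57 (SE 0.14, adjusted p = 0.0352). Nfatc2 had 9.23 and 9.31 in EV, 9.12 and 9.11 in IKK_K171E, and 8.84 and 8.74 in MYD88_L265P, a fall of 0.48 (SE 0.088, adjusted p = 0.0165). The constructs overlapped for Nfatc1 and were apart for Nfatc2. Plcg2, the phospholipase that makes inositol trisphosphate, had -0.31 (adjusted p = 0.0608), and Ppp3ca, the calcineurin catalytic subunit gene, -0.30 (adjusted p = 0.0846).

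Some markers of other cell types were also called in MYD88_L265P over EV, where 7.33% of all features were lower and 9.32% higher. Of 12 plasma cell markers 5 rose (Prdm1, Xbp1, Jchain, Edem1 and Derl3) and 0 fell. The log2 fold change was above 0 for 10 of the 12, and was -0.12 for both Sdc1 and Tnfrsf17. The log2 of their summed signal was 13.84 and 14.10 in MYD88_L265P, 13.19 and 13.23 in EV, and 13.05 and 13.40 in IKK_K171E. Of 13 measured T cell markers 4 fell (Cd3e, Cd3g, Cd2 and Cd4) and 0 rose, and their summed signal was 12.37 to 12.38 against 12.85 to 12.86 in EV. That sum rests largely on Cd2, whose mean log2 signal was 12.06 in EV and 11.37 in MYD88_L265P. The EV means of Cd3e, Cd3g and Cd4 were 8.78, 7.77 and 7.88, so the sum says little about these genes or about T cells. The median log2 fold change of the 13 was -0.30. Several of the receptor signalling genes, among them Fyn, Vav1 and Nfatc2, are also expressed by T cells. Of 10 NK cell markers 2 fell (Klrd1 and Nkg7), with summed signals of 10.21 to 10.49 against 10.51 to 10.67 in EV. Ly6g fell among 10 neutrophil markers (10%, near the 7.33% of all features). Their summed signals were 10.36 to 10.37 against 10.53 to 10.62 in EV. Of 14 measured monocyte and macrophage markers Adgre1 fell by 1.78 on the log2 scale (adjusted p = 0.00425) and 0 rose. This call is 7.14% of the list, near the 7.33% of all features. Of the 14, 8 had a log2 fold change above 0 and 6 below, with a median of 0.09. The summed signals were 12.97 to 13.18 against 13.08 to 13.39 in EV, and these overlapped. They rest in part on Adgre1, whose mean log2 signal was 11.20 in EV and 9.43 in MYD88_L265P. The part of these cell types in the result was not tested.

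The number of called genes rested on the pairs of arrays. Leaving out EV replicate 2 left 7 genes called: Cd72, Cd22, Inpp5d, Ptpn6, Cd79b, Blk and Itpr2. Leaving out MYD88_L265P replicate 1 left Cd72 alone, and so did leaving out MYD88_L265P replicate 2.

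**Figure D3:**
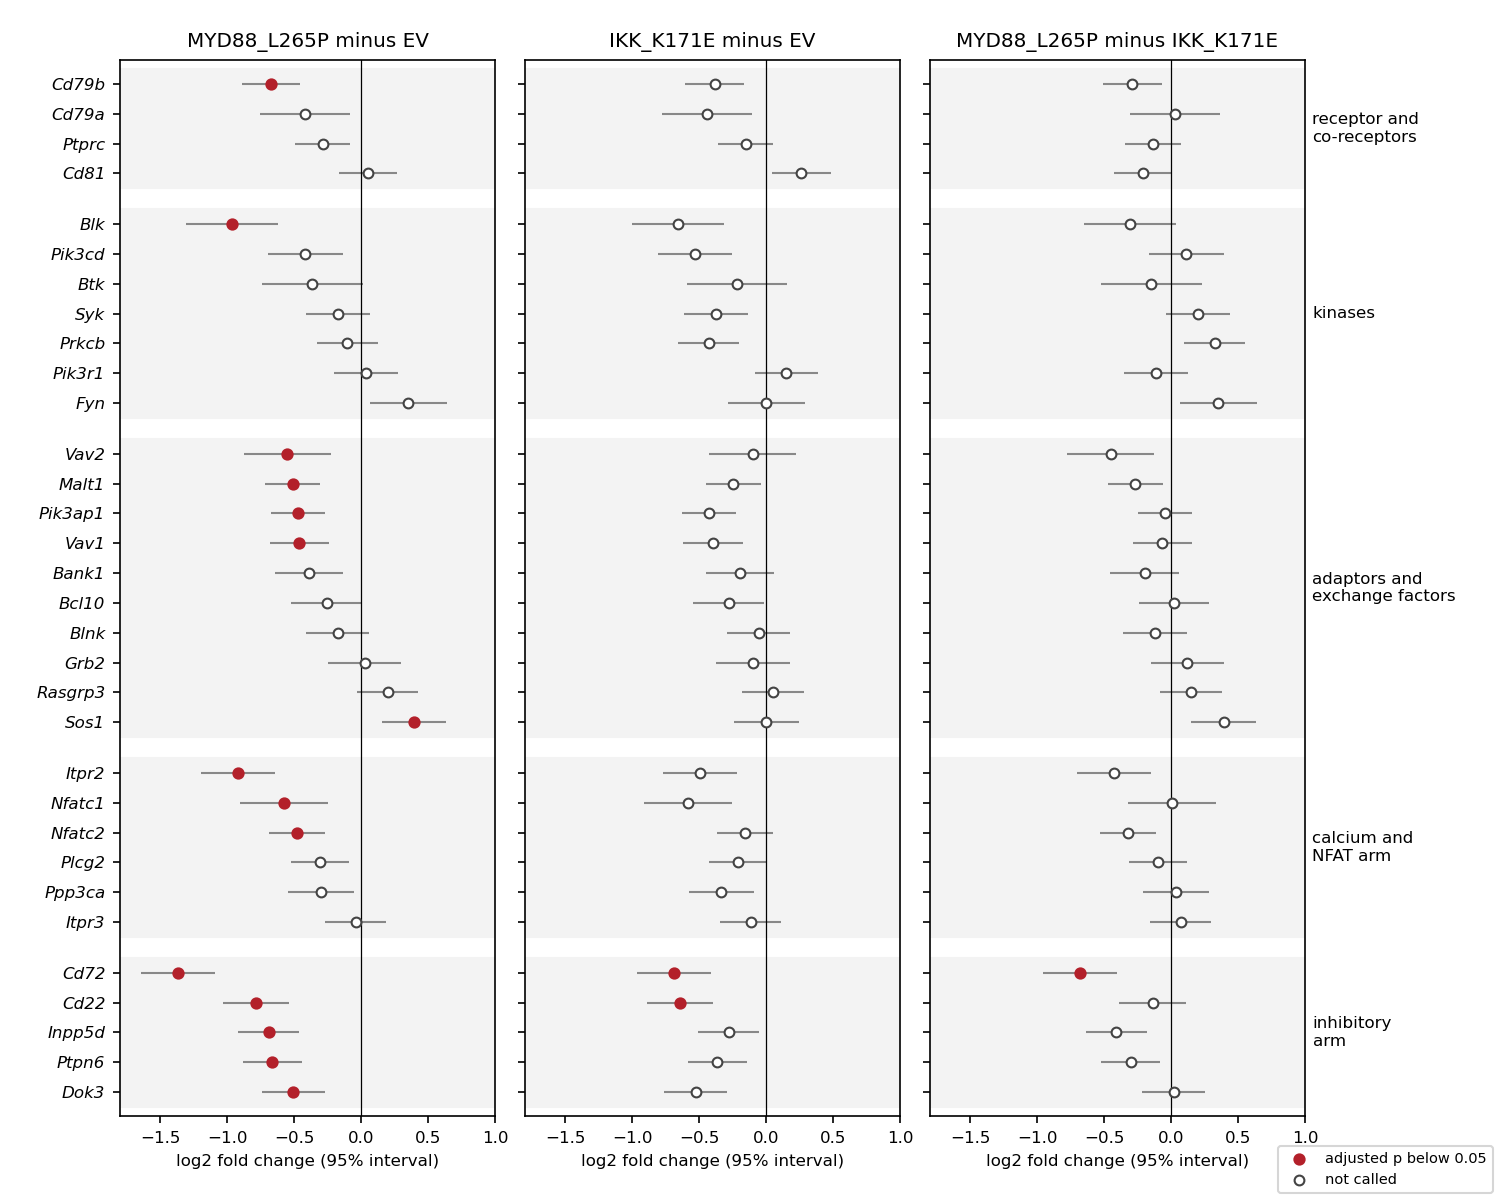
Log2 fold changes of the 32 genes with 95% intervals from the limma fit, by role, for MYD88_L265P minus EV, IKK_K171E minus EV and MYD88_L265P minus IKK_K171E; filled points passed an adjusted p below 0.05 and open points did not. There are 15 filled points in the first panel, 2 in the second (Cd72 and Cd22) and 1 in the third (Cd72).

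The next comparison asked what IKK_K171E did to the same genes against the same EV arrays, which the comparisons therefore share. Of the 32 genes 2 fell, 0 rose and 30 did not pass. Both belong to the inhibitory arm: Cd72 had a log2 fold change of -0.69 (SE 0.12, adjusted p = 0.0458) and Cd22 -0.64 (SE 0.105, adjusted p = 0.0416), falls of 1.61-fold and 1.56-fold. Among all features 0.413% were lower, 0.956% higher and 1.37% called in either direction, and 0.914% were lower after the filter on signal. Many of the other genes lay below EV without passing. At an unadjusted p below 0.05, 18 of the 32 were lower and 1 higher (Cd81), beside 8.16% and 8.90% of all features and 12.8% lower after the filter on signal. Both IKK_K171E arrays lay below both EV arrays for 23 genes, beside 28.4% of all features, and the median log2 fold change was -0.28, beside -0.04 for all features. The log2 fold change was below 0 for 27 genes, beside 59.5% of all features.

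The values not called in IKK_K171E over EV ran through every role. In the inhibitory arm Dok3 had a log2 fold change of -0.52 (adjusted p = 0.0585), Ptpn6 -0.36 and Inpp5d -0.28. Cd79a had -0.44 and Cd79b -0.38, and the kinase genes Blk, Pik3cd, Prkcb and Syk had -0.66, -0.53, -0.43 and -0.37 (adjusted p from 0.0842 to 0.126). Pik3ap1 had -0.43 (adjusted p = 0.0674) and Vav1 -0.40, and in the calcium arm Nfatc1 had -0.58 and Itpr2 -0.49. Prkcb had log2 signals of 11.67 and 11.61 in IKK_K171E, below 12.06 and 12.08 in EV and 11.88 and 12.06 in MYD88_L265P. For Prkcb and Syk the IKK_K171E arrays were thus the lowest of the 3 groups. Near 0 stood Fyn and Sos1 (both 0.00, 95% intervals -0.29 to 0.29 and -0.24 to 0.24), Rasgrp3 (0.05) and Blnk (-0.06).

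Monocyte and macrophage markers were mostly higher in the IKK_K171E arrays, and 11 of the 14 measured had a log2 fold change above 0 over EV. The log2 of the summed signal of the 14 measured markers was 13.82 and 14.02, against 13.08 and 13.39 in EV and 12.97 and 13.18 in MYD88_L265P. The largest part of the IKK_K171E sums came from Lyz2, with 12.96 and 12.89, against 11.09 and 11.95 in EV. Csf1r rose and Adgre1 fell among the markers in IKK_K171E over EV, beside 0.956% of all features higher and 0.413% lower. Both IKK_K171E arrays lay above both EV arrays for 9 of the 14, beside 17.6% of all features. The summed signal of the NK cell markers was 10.75 to 10.87, above 10.51 to 10.67 in EV. That of the neutrophil markers was 10.63 to 10.71, little above 10.53 to 10.62 in EV, and 0 markers of either list were called. Of the 10 NK cell markers 8 had a log2 fold change above 0 and 2 below, with a median of 0.14. Of the 10 neutrophil markers 6 were above 0 and 4 below, with a median of 0.02. Without overlap, 3 neutrophil markers were higher than EV and 2 lower. The T cell markers' sum, which rests largely on Cd2 (log2 fold change -0.57), was 12.57 to 12.70, below EV. Of the 13 T cell markers 10 had a log2 fold change above 0, 6 did not overlap EV and were higher, the median was 0.14, and 0 were called. Plasma cell markers had sums of 13.05 to 13.40, and 0 of 12 were called. The part of such cells in the values above was not tested. The calls of Cd72 and Cd22 both ended without EV replicate 2, without IKK_K171E replicate 1 and without either MYD88_L265P array, which leaves fewer arrays to estimate the spread. Without EV replicate 1 Cd22 no longer passed, and the number called was 4. After quantile normalization the adjusted p of Cd72 was 0.0578, and with the arrays set to a common median it was 0.0505, while Cd22 passed in both. With array weights and with all features of the table, neither gene passed.

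Whether the 2 constructs differed was tested directly. Cd72 was lower in MYD88_L265P than in IKK_K171E by 0.68 on the log2 scale (log2 fold change -0.68, SE 0.12, 95% interval -0.96 to -0.41, adjusted p = 0.0411). It was the 1 gene of 32 that passed, beside 0.877% of all features lower, 0.873% higher and 1.75% called, and 1.35% lower after the filter on signal. The arrays of the constructs did not overlap for 16 genes lower and 6 higher in MYD88_L265P, beside 36.1% and 20.9% of all features. The log2 fold change was below 0 for 19 genes, beside 61% of all features, with a median of -0.10 beside -0.05. The call of Cd72 ended with a common median of the arrays (adjusted p = 0.0567), with all features of the table (0.0578) and without any 1 of the 4 arrays of the 2 constructs (0.0629 to 0.237). Next by adjusted p was Inpp5d with -0.41 (95% interval -0.64 to -0.18, adjusted p = 0.0955), and Itpr2 (-0.43, interval -0.70 to -0.15) and Vav2 (-0.45, interval -0.78 to -0.13) were of like size. Toward higher values in MYD88_L265P stood Sos1 (0.39, interval 0.15 to 0.63), Fyn (0.35, interval 0.07 to 0.64) and Prkcb (0.33, interval 0.10 to 0.55), none of which passed. For several genes the difference was small: Dok3 had 0.02 (interval -0.22 to 0.25), Pik3ap1 -0.05 (-0.25 to 0.16), Vav1 -0.07 (-0.29 to 0.16) and Nfatc1 0.01 (-0.32 to 0.34).

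Some markers of cell types also differed between the constructs, where 0.877% of all features were called lower in MYD88_L265P and 0.873% higher. In MYD88_L265P over IKK_K171E the plasma cell markers Prdm1 (2.19) and Xbp1 (1.20) were higher. Of the 12 plasma cell markers 9 had both arrays above both IKK_K171E arrays, beside 20.9% of all features. The T cell markers Cd3e (-0.61) and Cd3g (-1.14), the NK cell marker Nkg7 (-0.75) and the neutrophil markers S100a8 (-0.52) and Cxcr2 (-0.85) were lower. Among B cell markers Pou2af1 (0.71) and Fcrla (0.50) were higher and Cd37 (-0.66) lower. Of the 14 monocyte and macrophage markers 0 were called and 12 had both arrays below both IKK_K171E arrays, beside 36.1% of all features. Their part in the difference of Cd72 was not tested.

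The order of the group means was EV highest, IKK_K171E between and MYD88_L265P lowest for 17 of the 32 genes. EV was highest with IKK_K171E lowest for 9. The share of all features in these orders is not given here. Of all features, 66.4% were lower in MYD88_L265P than in EV and 59.5% in IKK_K171E than in EV. Between the constructs, 61% were lower in MYD88_L265P, so such orders are common. For 12 genes, 37.5% of the 32, the 6 arrays fell into 3 separate steps from EV through IKK_K171E to MYD88_L265P, beside 10.8% of all features. These were Cd79b, Ptprc, Blk, Bank1, Malt1, Plcg2, Itpr2, Nfatc2, Cd22, Cd72, Inpp5d and Ptpn6.

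The rest of the pathway was described by 101 other genes of receptor signalling, of which 88 were measured. In MYD88_L265P over EV 20 fell, 8 rose and 60 did not pass, with a median log2 fold change of -0.15. The falls are 22.7% of the 88, beside 7.33% of all features, and the increases 9.09%, beside 9.32%. With a common median of the arrays 13 fell (14.8%, beside 3.43%) and 10 rose (11.4%, beside 12%). The share of increases was thus near that of all features under both scalings. Falls were led by Fcrl1 (-1.44), an Fc receptor-like gene of B cells, Cr2 (-1.31), a complement receptor, and Lax1 (-1.29), an inhibitory membrane adaptor. Increases were led by Fcrl5 (1.64, SE 0.43), an inhibitory receptor whose EV arrays were far apart (9.50 and 11.04), the collagen receptor gene Lair1 (1.26), which is inhibitory, and the phosphatase gene Ptpn12 (0.70). Of the 24 other genes listed as inhibitory, a list that includes Fcrl1, 6 fell, 3 rose and 15 did not pass. Of the remaining roles, 2 of 4 receptor genes, 7 of 26 adaptors, 4 of 15 calcium genes and 1 of 19 kinases fell, and 0, 1, 1 and 3 rose.

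IKK_K171E over EV changed 3 of these 88 genes: Lax1 (-0.93, SE 0.12) and Pag1 (-0.61), an adaptor that holds the kinase CSK at the membrane, fell, and Lair1 rose (0.78). These are 2.27% lower and 1.14% higher, beside 0.413% and 0.956% of all features. Between the constructs 5 passed, 3.41% lower and 2.27% higher, beside 0.877% and 0.873% of all features. Cr2 (-1.33), Cd300a (-1.02), an inhibitory receptor, and the Src family kinase gene Fgr (-0.77) were lower in MYD88_L265P, and Pik3cg (0.92) and Ptpn12 (0.68) were higher. With a common median of the arrays 1 was lower and 3 were higher, beside 0.599% and 1.18% of all features. Cr2 had log2 signals of 11.20 and 11.70 in EV and 11.41 and 11.52 in IKK_K171E, against 10.32 and 9.96 in MYD88_L265P. The IKK_K171E arrays of Cr2 lay within the EV range. The 5 calls fell to 0 without IKK_K171E replicate 1, without IKK_K171E replicate 2 and without MYD88_L265P replicate 2, and to 1 without MYD88_L265P replicate 1. The 28 calls of MYD88_L265P over EV fell to 13 when EV replicate 2 was left out, and to 6 or 3 when MYD88_L265P replicate 1 or replicate 2 was. The 3 calls of IKK_K171E over EV became 5 without EV replicate 1, 2 without EV replicate 2, 0 without IKK_K171E replicate 1, 2 without IKK_K171E replicate 2 and 1 without either MYD88_L265P array.

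**Figure D4:**
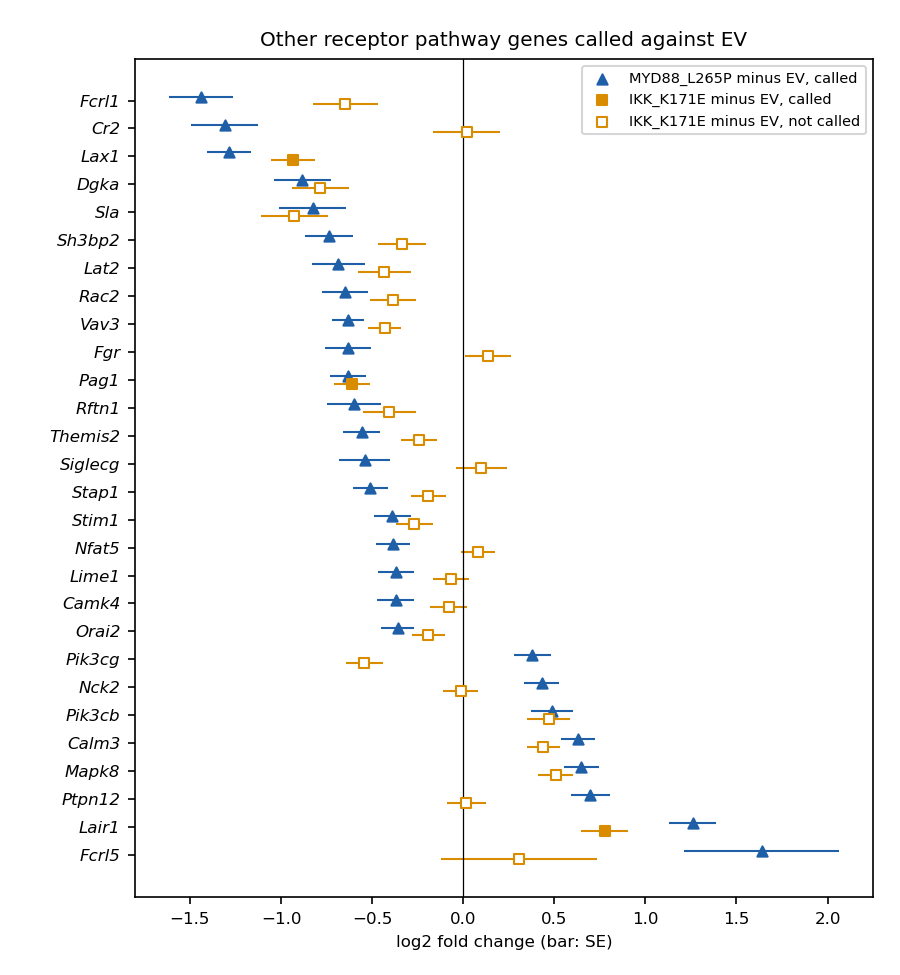
Log2 fold changes over EV, with their SE as bars, of the 28 other receptor pathway genes that passed in MYD88_L265P (triangles), with their values in IKK_K171E (squares); filled symbols passed an adjusted p below 0.05. Fcrl1, Cr2 and Lax1 stand lowest in MYD88_L265P and Fcrl5 and Lair1 highest, and Lax1, Pag1 and Lair1 are the genes with a filled square.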

How the data were processed

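Expression was measured on 6 Affymetrix mouse ST 1.0 arrays, 1 per sample, with 2 per group. The authors deposited a log2 signal for each feature, made with oligo and limma, per the submitters' processing notes. Background correction, summarization, versions and a genome build are not given in the sources used here. The table holds 24743 features and no detection p-values. The 21542 features with exactly 1 symbol in the platform annotation were fitted with group means over all 6 arrays in limma 3.58.1 (R 4.3.3). P-values are two-sided, from empirical Bayes moderation with 3 residual and 4.17 prior degrees of freedom, and adjusted by Benjamini-Hochberg over these features. The threshold was an adjusted p below 0.05, and 95% intervals come from the same fit. The share called after a filter on signal was added after seeing the data. Each gene is its brightest feature by the mean over the 6 arrays. The procedure was tested on simulated data. In MYD88_L265P over EV, IKK_K171E over EV and MYD88_L265P over IKK_K171E, it called 22.4%, 19.4% and 28.4% of simulated 1.5-fold changes. Of simulated 2-fold changes it called 86.6% to 89.6%. A gene that did not pass may therefore still differ by a small fold. Signals of different features were used to choose a gene's feature, to filter features and to sum the markers of a cell type. Such sums weight the brightest features most. Apart from these uses, signals of different features were not compared as expression levels.

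The genes, lists, roles and motifs were chosen with earlier results of these data known. All measured genes of the set are named, with the 3 largest called genes of the other pathway list in each direction, and markers where 5 or fewer of a list were called. The number of arrays limits the precision. Alternatives covered normalization, centring, the variance model, array weights, features, thresholds, replicate blocks and each array left out.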

Additional observations from a re-analysis of the deposited data

Results flagged for a closer look

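Cd72 met the test of a difference between the effects of the 2 constructs against EV, which share the EV arrays. Its log2 fold change in MYD88_L265P minus IKK_K171E was -0.68 (limma adjusted p = 0.0411), with both MYD88_L265P arrays below both IKK_K171E arrays. No other gene of the 32 met it.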

How the results depend on the processing

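Over the 32 genes, no alternative turned the sign of a called log2 fold change. The 15 calls of MYD88_L265P over EV numbered between 13 and 19 under normalization, centring, the variance model, array weights, the features and arrays used and the replicate blocks. They became 1 with a 2-fold minimum and 7 at an adjusted p below 0.01, and 1 to 16 with 1 array left out. The 2 calls of IKK_K171E over EV became 1 with a common median, 4 with the replicate block from the titles, 0 with array weights, with all features, with the 4 arrays compared and at both stricter thresholds, and 0 to 4 with 1 array left out. The 1 call between the constructs became 2 with the title block, 0 with a common median, all features and both stricter thresholds, and 0 to 1 with 1 array left out.

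For the other pathway genes the 28 calls in MYD88_L265P over EV became 5 with a 2-fold minimum, 7 at an adjusted p below 0.01 and 3 to 28 with 1 array left out. The 3 calls in IKK_K171E over EV became 5 under quantile normalization, without the features of lowest signal and with the title block, 8 with the description block, 1 with all features and with the 4 arrays, 0 with array weights and both stricter thresholds, and 0 to 5 with 1 array left out. The 5 calls between the constructs became 3 with all features, 12 with the title block, 2 with a 2-fold minimum, 0 at an adjusted p below 0.01 and 0 to 7 with 1 array left out. The causes of these changes in the counts were not tested.

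Replicate numbers differ between the titles and the descriptions and do not establish a pairing: same-numbered arrays had deviations with correlations of 0.105 to 0.211 between groups, over only 2 numbers. With the replicate block from the descriptions, 16, 3 and 1 of the 32 genes were called in the 3 comparisons, and with that from the titles 15, 4 and 2, where Cd22 was lost in IKK_K171E over EV. A common median moved the median of the 32 genes in MYD88_L265P over EV from -0.40 to -0.32 and that of all features from -0.11 to -0.02, and quantile normalization gave -0.48 and -0.03. Signal above background could not be judged without detection values.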

Other observations

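Genes of the phosphoinositide kinase subunits differed among themselves, a set chosen after its values were seen. Pik3cg, the gamma catalytic subunit, had log2 signals of 9.83 and 9.97 in EV, 9.31 and 9.42 in IKK_K171E, and 10.35 and 10.22 in MYD88_L265P. The IKK_K171E arrays were below and the MYD88_L265P arrays above EV, with log2 fold changes of -0.54 (limma adjusted p = 0.0560) and 0.38 (adjusted p = 0.0449). Pik3cb, the beta subunit, had 0.47 in IKK_K171E (adjusted p = 0.105) and 0.49 in MYD88_L265P (adjusted p = 0.0341) over EV. Pik3cd, the delta subunit, had -0.53 and -0.42, and Pik3ca, the alpha subunit, -0.42 and -0.33, and both passed in neither comparison. Of the regulatory subunit genes, Pik3r1 had 0.15 and 0.04, Pik3r2 -0.03 and -0.11, and Pik3r5 0.22 and 0.01, and none of these 3 passed.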
